A study of Mus musculus with 6 samples.

Results

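Eph receptors, ephrins, Slits, Robo receptors, netrins and netrin receptors are the classical guidance families, and their transcripts were compared between PICs and satellite cells of young mouse muscle. A gene was a member when the platform annotation gave a probe set its symbol alone, as in Epha, Ephb, Efna, Efnb, Slit, Robo, Ntn or Unc5 followed by a number or letter, or as Dcc or Neo1. This gave 40 genes, measured by 84 probe sets, of 18193 genes named in this way on the array. For each gene the probe set with the highest mean over the 6 arrays was used. PICs are cells of the muscle interstitium named for PW1 (encoded by Peg3), whereas satellite cells are the stem cells that lie on muscle fibres. CD34 and Sca1 staining separated them in a sort of hindlimb muscle cells from C57 black 6 animals between 7 and 9 days old, with no other treatment named, and each population has 3 arrays. The labels call the arrays of a population biological replicates and name neither animals nor pools, so p-values measure the spread between these samples.

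Eph receptors are receptor tyrosine kinases whose ligands, the ephrins, sit on the surface of neighbouring cells: ephrin-A proteins are held by a lipid anchor and ephrin-B proteins span the membrane. Contact between them can signal into both cells and often drives repulsion, and in the limb it steers motor axons and migrating muscle precursors. Slits are secreted proteins that signal through Robo receptors. Netrins are laminin-related proteins, secreted or membrane-anchored, and secreted netrins signal through Dcc, neogenin (Neo1) and the Unc5 receptors. Beyond the nervous system these families act on vessels, epithelia and mesenchyme.

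The values are GCRMA intensities on a linear scale, taken to log2, and differences are PICs minus satellite cells. A log2 value of 4 (an intensity of 16) was taken as the low value level. A gene was tested when at least 3 of the 6 arrays lay above it, and was called when the limma adjusted p was under 0.05 and the size of the log2 difference reached 1, which is 2-fold. Over the 10855 genes tested, arrays of 1 population correlated at 0.956 to 0.986 and arrays of different populations at 0.800 to 0.850. In the check of the labels, 10 of 10 myogenic markers were called higher in satellite cells, and 9 of 9 tested mesenchymal markers higher in PICs. The 9 include Cd34, whose protein was stained in the sort, so Cd34 is no independent check. They also include Clec3b, which had no satellite array above the low value level, so the filter fixes its direction. Of 5 tested Schwann markers 3 were also called higher in PICs (Cdh19, Ngfr and S100b; median of the 5, 1.90), with Gfra3 at 4 on every array. Cdh19 passed through the PIC arrays alone, so the filter fixes its direction as well. Mural markers were called 1 time towards PICs and 2 times towards satellite cells among 8 tested, and tenocyte markers 1 time each way among 4. The part of these cell types in the guidance gene differences was not tested. Pax7 read 236, 87 and 81 in PICs and 3065, 3455 and 3326 in satellite cells, and Pdgfra read 10133, 9265 and 9081 against 513, 449 and 1074. The log2 level of Peg3 was 14.38 ± 0.04 in PICs against 14.19 ± 0.08 in the other population (SD, n = 3 each), a difference of 0.19 (limma, adjusted p = 0.156). Haematopoietic markers were high in the arrays numbered 1, with summed intensities of 2594 in PICs and 3411 in satellite cells against 86 to 313 on the other 4 arrays.

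Of the 40 guidance genes, 25 had enough arrays above the low value level to be tested, and 14 were called. Higher in PICs were 11 genes: the ephrins Efna2, Efna5, Efnb1, Efnb2 and Efnb3, the receptors Epha3, Epha4, Epha7 and Ephb3, the ligand Slit3 and the membrane-anchored netrin Ntng1. Higher in satellite cells were 3 genes: the receptors Ephb1 and Unc5a and the netrin-related Ntn5. Over all genes tested 29.8% were called, 16.7% towards PICs and 13.0% towards satellite cells. The median difference over the 25 genes was 0.59, against -0.04 over all genes tested. With 1 array left out this median ranged from 0.53 (without PICs replicate 2) to 0.89 (without PICs replicate 3). Over all 40 members without the filter it was 0.09, against 0 over all 18193 genes. Without the filter the counts were again 11 and 3, where 9.36% of all genes were called towards PICs and 7.31% towards satellite cells. Of the 25, 23 had arrays above the low value level in both populations, 1 (Efnb3) passed through the PIC arrays alone and 1 (Ephb1) through the satellite arrays alone. The filter fixes the direction of those last 2, and without them 10 genes were called towards PICs and 2 towards satellite cells. Among these, Epha7 and Ntn5 each had 1 array of the lower population just above the level, at 17.

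**Figure D1:**
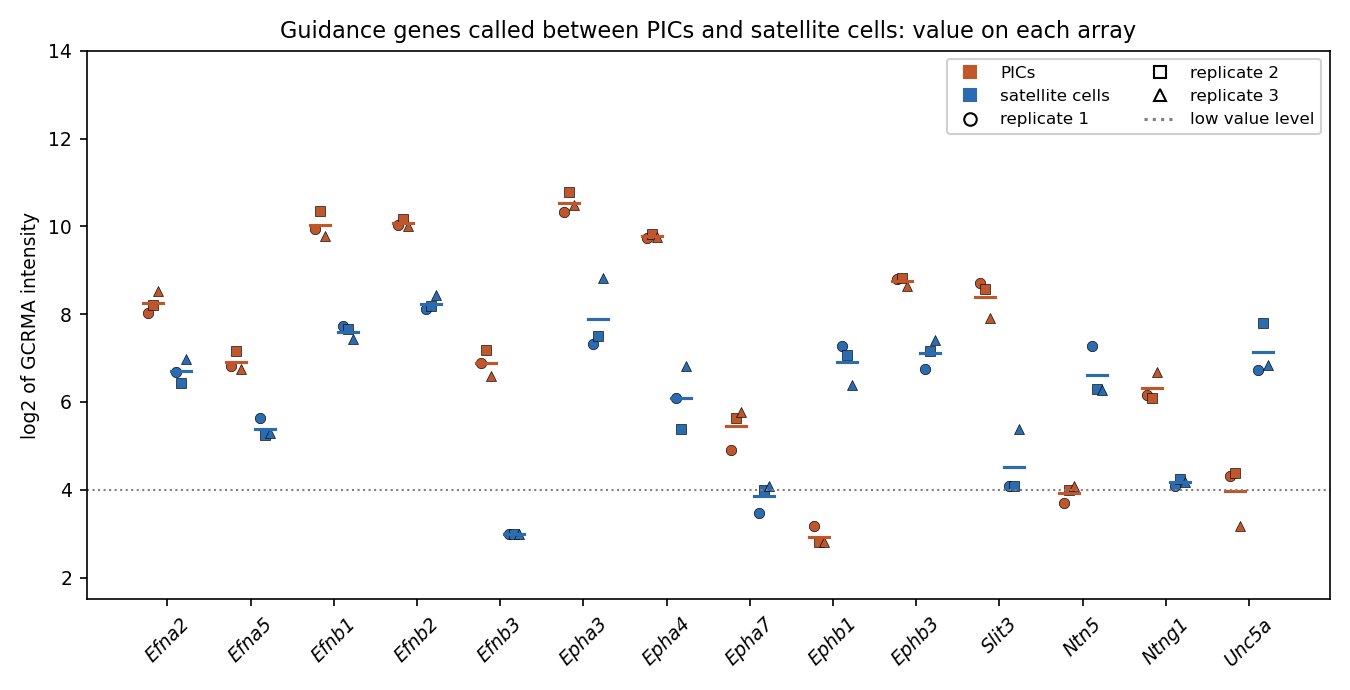
Log2 GCRMA intensity (vertical axis) of the 14 called genes on each array, PICs in orange and satellite cells in blue, with the marker shape giving the replicate number, the short line the mean of 3 arrays and the dotted line the low value level of 4. The arrays of the populations do not overlap for any of the 14 genes, which were selected by the call. Over all genes tested 64.6% do not overlap. Ephb1, Ntn5 and Unc5a are the genes with satellite cells above.

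To show what precedes the start of genes called in each direction, the 250 bases upstream of the RefSeq start (GRCm38.p6, 5′ to 3′ on the gene's strand) are given for the 3 genes higher in satellite cells and for Slit3 and Epha4, among those higher in PICs. Capitals mark E-boxes (CANNTG, the letters bound by MyoD-type factors) and GC boxes (GGGCGG or, on the other strand, CCGCCC); no E-box overlapped a GC box.
Ephb1 (chr9:102354694-102354943, minus strand): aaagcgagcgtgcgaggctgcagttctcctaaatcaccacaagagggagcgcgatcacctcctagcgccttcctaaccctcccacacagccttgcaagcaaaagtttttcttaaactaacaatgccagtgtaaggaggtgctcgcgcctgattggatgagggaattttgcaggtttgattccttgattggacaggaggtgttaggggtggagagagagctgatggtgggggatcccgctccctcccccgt
Unc5a (chr13:54949161-54949410, plus strand): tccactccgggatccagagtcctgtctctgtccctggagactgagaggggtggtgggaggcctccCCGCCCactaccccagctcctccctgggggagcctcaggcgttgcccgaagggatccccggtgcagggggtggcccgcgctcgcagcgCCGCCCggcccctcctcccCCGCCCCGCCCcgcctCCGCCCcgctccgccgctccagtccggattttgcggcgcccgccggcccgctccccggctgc
Ntn5 (chr7:45683772-45684021, plus strand): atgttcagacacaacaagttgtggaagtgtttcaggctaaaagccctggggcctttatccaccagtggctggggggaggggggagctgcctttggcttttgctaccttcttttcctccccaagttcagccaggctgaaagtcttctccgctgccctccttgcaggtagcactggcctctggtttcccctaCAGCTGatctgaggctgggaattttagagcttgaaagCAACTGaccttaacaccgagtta
Slit3 (chr11:35121206-35121455, plus strand): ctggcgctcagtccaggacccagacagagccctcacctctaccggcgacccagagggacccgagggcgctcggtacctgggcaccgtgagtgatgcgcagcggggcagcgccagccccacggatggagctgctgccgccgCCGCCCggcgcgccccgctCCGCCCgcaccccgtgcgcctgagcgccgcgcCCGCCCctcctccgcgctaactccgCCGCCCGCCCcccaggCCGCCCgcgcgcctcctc
Epha4 (chr1:77515089-77515338, minus strand): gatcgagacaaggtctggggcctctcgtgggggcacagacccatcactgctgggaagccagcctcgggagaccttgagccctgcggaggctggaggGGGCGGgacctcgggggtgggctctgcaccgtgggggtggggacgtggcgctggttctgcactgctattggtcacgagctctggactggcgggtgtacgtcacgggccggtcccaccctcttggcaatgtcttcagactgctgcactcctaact
The Ntn5 window held 2 E-boxes, CAGCTG at 60 and CAACTG at 23 bases before the start, and no GC box. The Ephb1 window held neither motif, and the Unc5a window held 5 GC boxes and no E-box. The Slit3 window held 6 GC boxes and the Epha4 window 1, with no E-box in either. An entry was found for 35 of the 40 members, of which 14 (40%) held CANNTG, 6 (17.1%) CAGCTG and 25 (71.4%) GGGCGG on either strand. Among all 32841 windows of the same length the shares were 66.2%, 13% and 32.7%. That set keeps every listed start of a gene, whereas each member has 1 start, so the sets are not alike. Of the 10 genes higher in PICs with an entry, 2 held CANNTG and 8 held GGGCGG, and of the 10 tested but not called 4 and 8 did. These matches are letters in a window, and binding was not measured.

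The ephrin-B ligands were all higher in PICs. Efnb1, the X-linked ephrin-B1, read 981, 1303 and 879 in PICs and 211, 202 and 172 in satellite cells. All 3 PIC arrays thus lay above the satellite arrays, and the difference was 2.42 (95% interval 1.99 to 2.85; limma, adjusted p = 0.000125), or 5.35-fold. Its other 2 probe sets gave 2.71 and 2.76. Efnb2, ephrin-B2, also known as a marker of arteries, read 1055, 1148 and 1034 against 276, 290 and 346. The spread within each population was small beside the gap, a difference of 1.83 (1.52 to 2.14; limma, adjusted p = 0.000107), and a second probe set gave 1.70. The other 2 Efnb2 probe sets read 5 to 7 on every array. Efnb3, ephrin-B3, read 119, 145 and 96 in PICs and 8 on every satellite array. The satellite arrays held no measured level, so the fold is a bound: Efnb3 was at least 7.40-fold higher in PICs. Efnb3 entered the test through the PIC arrays alone, so its call adds nothing to that bound.

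Of the 5 ephrin-A ligands, 2 were called and both were higher in PICs. Efna2 read 260, 297 and 369 in PICs and 103, 86 and 125 in satellite cells, a difference of 1.56 (1.09 to 2.03; limma, adjusted p = 0.000749). Efna5, which in the limb and brain repels growing axons, read 114, 143 and 107 against 50, 38 and 39, a difference of 1.52 (1.11 to 1.93; limma, adjusted p = 0.000496). Neither gene showed overlap between the populations. Efna1 followed the same order with a smaller gap, at 93, 97 and 87 against 76, 50 and 63. Its difference of 0.57 (0.16 to 0.98; limma, adjusted p = 0.0286) was under 2-fold and was not called. Efna3 and Efna4 read 4 to 6 on every array. Of the 8 ephrin genes 6 were tested, and the limma fit called 5 towards PICs and 0 towards satellite cells. Of all genes tested 16.7% and 13.0% were called. The ephrin counts include Efnb3, whose direction the filter fixes. At an unadjusted p under 0.05 there were 6 and 0, against 30.0% and 31.3% of all genes.

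Eph receptors were called in both directions. Epha4, a receptor that binds ephrins of both classes, read 856, 906 and 862 in PICs and 68, 42 and 112 in satellite cells. It had the widest gap of the receptors higher in PICs, 3.68 (2.86 to 4.49; limma, adjusted p = 0.000237) or 12.8-fold, and the 3 other probe sets above the filter gave 2.50, 3.16 and 3.56. A further Epha4 probe set that did not pass read 30, 25 and 9 in PICs and 8 on each satellite array. Epha3, a receptor of ephrin-A ligands, read 1275, 1757 and 1435 against 160, 181 and 456, a difference of 2.64 (1.67 to 3.61; limma, adjusted p = 0.00176). A second Epha3 probe set with measured levels in both populations gave 2.66. On the other 2 no satellite array was above the low value level, and they bound the fold at 2.74 and 1.73 or more. For Epha3 and Epha4 the satellite array numbered 3 was the highest of its population, and Pdgfra was highest on that array too, at 1074 against 513 and 449. The other mesenchymal markers were highest there as well, except Dpt (8184, 7297 and 7365) and Clec3b. Efna5, Efnb1 and Ntng1, also called towards PICs, were not highest on that array. Whether marker levels bear on the levels of these genes was not tested. Epha7 lay lower on its scale, at 30, 50 and 55 in PICs and 11, 16 and 17 in satellite cells, where 1 array passed the low value level. The difference was 1.60 (0.92 to 2.27; limma, adjusted p = 0.00333), but with 16 added to each value it was 0.97 and was not called. In bulk samples such as these, fewer cells of a type and less RNA per cell cannot be told apart, and this holds for each gene here.

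The EphB receptors split. Ephb1 read 9, 7 and 7 in PICs and 155, 134 and 83 in satellite cells. The PIC arrays held no measured level, so Ephb1 was higher in satellite cells by at least 7.49-fold. It entered the test through the satellite arrays alone, so its call adds nothing to that bound. Ephb3 went the other way, at 449, 452 and 399 in PICs and 108, 143 and 171 in satellite cells, a difference of 1.65 (1.20 to 2.09; limma, adjusted p = 0.000503). Both receptors bind ephrin-B ligands. Ephb6, which lacks kinase activity, read 20 to 24 in PICs and 24 to 28 in satellite cells (difference -0.22, 95% interval -0.53 to 0.09). Epha2 lay near the low value level at 22 on each PIC array and at 22, 25 and 44 in satellite cells (-0.39, -1.02 to 0.23; -0.09 without satellite replicate 3). Epha1, Epha5, Epha6, Epha8 and Epha10 did not pass the filter.

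**Figure D2:**
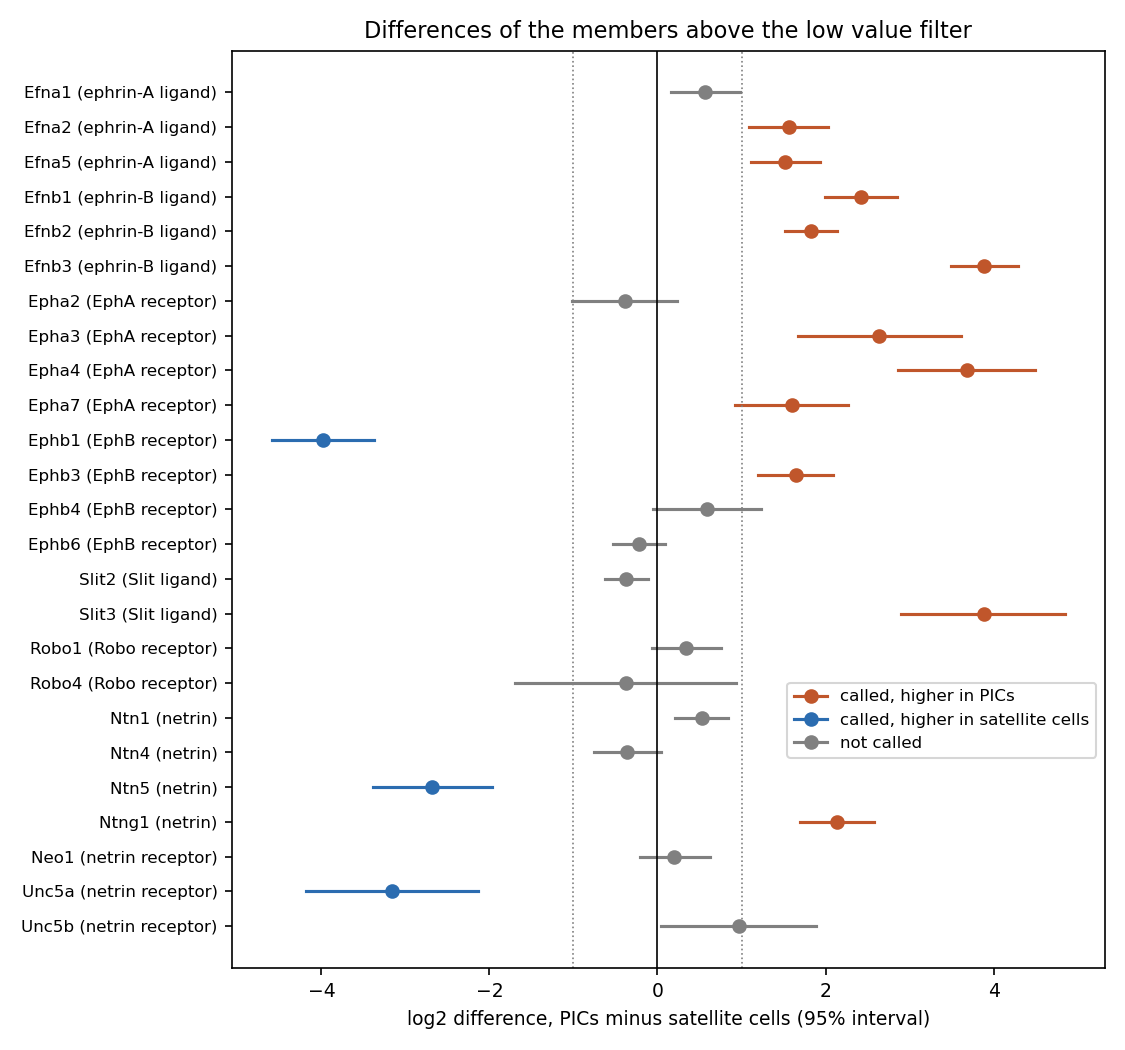
Log2 difference, PICs minus satellite cells (horizontal axis), of the 25 guidance genes above the filter, with 95% intervals from limma; dotted lines mark 2-fold, orange and blue mark called genes and grey the rest. The 5 called ephrins lie to the right, while Ephb1, Unc5a at -3.16 and Ntn5 at -2.68 lie to the left; the intervals of Efnb3 and Ephb1 run against a population with no measured level.

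Slit ligands differed from each other. Slit3 read 420, 379 and 243 in PICs and 17, 17 and 42 in satellite cells, where 2 arrays lay just above the low value level. The difference was 3.88 (2.90 to 4.85; limma, adjusted p = 0.000374), or 14.7-fold, and the satellite array numbered 3 was again the highest. Slit2 had a gap of opposite sign and small size, at 131, 137 and 139 in PICs and 162, 182 and 183 in satellite cells. The populations did not overlap, and the difference of -0.37 (-0.63 to -0.11; limma, adjusted p = 0.0249) was under 2-fold. Slit1 was at 5 on every array.

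No Robo receptor was called by limma, and 0 had an unadjusted p under 0.05. Robo1, the widely expressed receptor, read 1704, 1387 and 1231 in PICs and 1159, 1260 and 978 in satellite cells. The groups overlapped, and the difference was 0.34 (-0.06 to 0.75; limma, adjusted p = 0.127). Robo2 was above the low value level on 1 PIC array, at 25, and was 10 to 12 on the other 5 arrays. Robo3 was at 7 on every array.

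Robo4, the Robo receptor known from endothelium, read 186, 112 and 38 in PICs and 130, 112 and 119 in satellite cells. The PIC arrays thus lay on both sides of the satellite arrays, with a difference of -0.38 (-1.69 to 0.94; limma, adjusted p = 0.588) that became 0.27 without PICs replicate 3. Unc5b, a netrin receptor of vessels, read 126, 96 and 44 in PICs and 45, 35 and 45 in satellite cells. Its difference of 0.97 (0.04 to 1.89; limma, adjusted p = 0.0710) was not called; it was called at 1.41 without PICs replicate 3 (adjusted p = 0.00233) and at 1.36 with array weights (adjusted p = 0.000468). Ephb4, the venous ephrin-B2 receptor, read 326, 302 and 170 in PICs and 155, 195 and 161 in satellite cells, a difference of 0.59 (-0.05 to 1.23; limma, adjusted p = 0.101). Without PICs replicate 3 it was 0.89 (adjusted p = 0.00444), still under 2-fold. All 3 genes were lowest in PICs on the array numbered 3. That order was not particular to them: Efnb1, Efnb2, Slit3, Robo1 and further guidance genes were lowest there too. Others, such as Efna2, Epha7 and Ntng1, were highest on that PIC array.

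The sum of every marker list was lowest in PICs on the array numbered 3. This includes the mesenchymal markers (93202, 94673 and 89128), the myogenic markers (6152, 4694 and 4529) and the tenocyte markers (18980, 21811 and 18606). The summed intensity of the 10 listed endothelial markers was 7497, 5259 and 2144 in PICs and 5471, 3932 and 3812 in satellite cells, and each of the 10 had an array above the low value level. Cdh5, the cadherin of endothelium, read 2146, 1683 and 362 in PICs and 1407, 851 and 658 in satellite cells. Pecam1 read 107, 93 and 26 against 76, 76 and 73. Limma called 0 of the 10 between the populations, and 0 had an unadjusted p under 0.05. The sums of the 8 mural markers were 22432, 15912 and 9205 in PICs and 34616, 31089 and 31897 in satellite cells. Those of the 6 Schwann markers measured were 14071, 7206 and 3374 against 10424, 3821 and 4811. Mbp, the brightest of them, read 12073, 4908 and 1503 in PICs, and Sox10 and Ngfr were also lowest on the array numbered 3. Cdh19 was highest on that PIC array (108, 112 and 247), S100b read 147, 141 and 148, and Gfra3 was at 4 throughout. The sums of the 7 haematopoietic markers were 2594, 313 and 86 against 3411, 183 and 125. The part of these cell types in the Robo4, Unc5b and Ephb4 values was not tested.

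**Figure D3:**
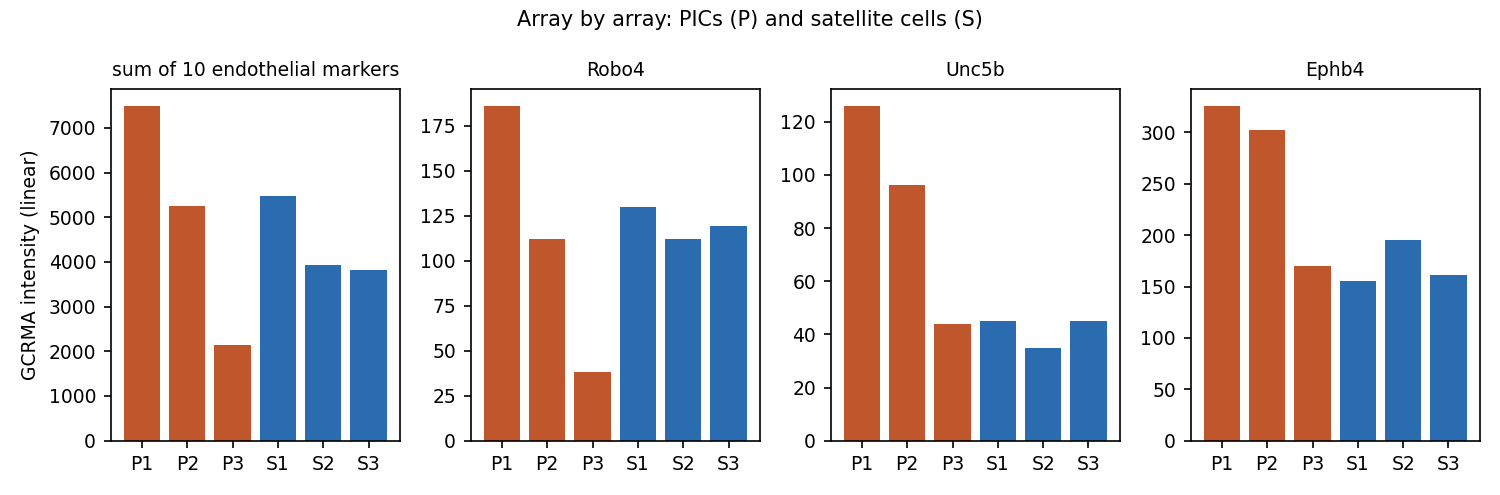
Linear GCRMA intensity on each array (P1 to P3, PICs; S1 to S3, satellite cells) of the sum of 10 endothelial markers and of Robo4, Unc5b and Ephb4, each on its own axis from 0. In all 4 panels P3 is the lowest PIC array, with a marker sum of 2144 against 7497 and 5259 on the other 2. P3 was also lowest for guidance genes not shown, such as Efnb1 and Slit3, but not for Epha7 and Ntng1.

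Netrin ligands also went both ways. Ntn5, a short netrin-like protein, read 13, 16 and 17 in PICs and 155, 78 and 77 in satellite cells. Only 1 PIC array passed the low value level, and the difference was -2.68 (-3.39 to -1.97; limma, adjusted p = 0.000461). Ntng1, which encodes the lipid-anchored netrin-G1, read 71, 68 and 103 in PICs and 17, 19 and 18 in satellite cells, a difference of 2.14 (1.70 to 2.58; limma, adjusted p = 0.000188). A second Ntng1 probe set read 30, 22 and 20 against 19, 19 and 20, a difference of 0.29 that was not called, and the mean of both gave 1.21. The size of the Ntng1 difference thus depends on the probe set.

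The secreted netrins 1 and 4 were measured in both populations with small gaps. Ntn1 read 1688, 2044 and 1587 in PICs and 1203, 1278 and 1195 in satellite cells. It was higher on each PIC array by less than 2-fold, with a difference of 0.53 (0.21 to 0.84; limma, adjusted p = 0.0142). Ntn4, a netrin of basement membranes, read 1531, 1431 and 1052 in PICs and 1770, 1621 and 1692 in satellite cells (-0.36, -0.76 to 0.04; limma, adjusted p = 0.109). Its arrays did not overlap although the test was not passed; over all genes tested 64.6% had arrays that did not overlap, 31.3% with PICs above and 33.2% with satellite cells above. Among the 25 guidance genes, 13 did not overlap with PICs above and 5 with satellite cells above. Ntn3 and Ntng2 were at 3 and 4 on every array.

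Among netrin receptors, Unc5a was the 1 called. It read 20, 21 and 9 in PICs, where 2 arrays passed the low value level, and 106, 223 and 115 in satellite cells, a difference of -3.16 (-4.18 to -2.14; limma, adjusted p = 0.00102). Neo1 read 1527, 1312 and 1677 in PICs and 1231, 1119 and 1594 in satellite cells. The ranges overlapped, the difference was 0.20 (-0.21 to 0.62; limma, adjusted p = 0.355), and 2 further probe sets gave 0.09 and -0.62. Dcc, Unc5c and Unc5d read 5 or 6 on every array.

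**Figure D4:**
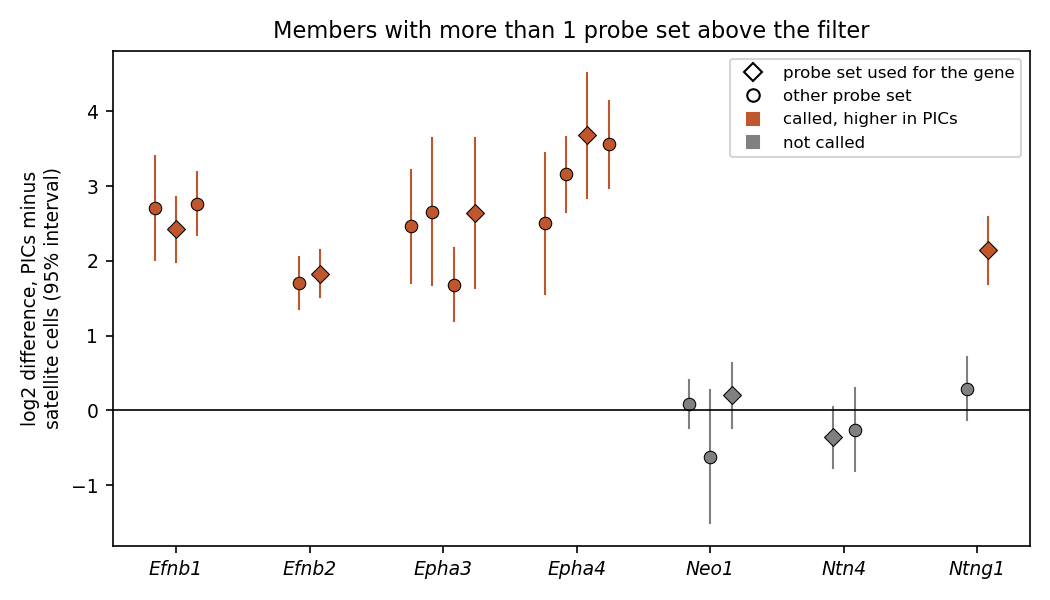
Log2 difference, PICs minus satellite cells (vertical axis, 95% intervals from limma over all probe sets above the filter), of each probe set of the 7 guidance genes with more than 1; diamonds are the probe sets used, orange is called and grey is not. The probe sets above the filter of Efnb1, Efnb2, Epha3 and Epha4 lie between 1.68 and 3.68, the 2 of Ntng1 at 2.14 and 0.29, and those of Neo1 on both sides of 0. The Epha3 probe sets at 1.68 and 2.46 had no satellite array above the low value level, so the filter fixes their direction.

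In all, 15 genes did not pass the filter. For 14 of them every array lay at or under the low value level, with intensities of 3 to 8, and Robo2 was the other one. In 11 of the 15 the value was the same on all 6 arrays. At such values GCRMA leaves no spread, so a difference between the populations could not be seen on this array. Of the 23 receptors 13 passed the filter, and of the 17 ligands 12. Ligands were called 7 times towards PICs and 1 time towards satellite cells, and receptors 4 times and 2 times, beside 16.7% and 13.0% of all genes tested. These counts include Efnb3 and Ephb1, whose direction the filter fixes.

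Of 27 tested partners of Eph signalling, limma called 6 towards PICs and 2 towards satellite cells (median 0.10). This share of 29.6% is that of all genes tested, 29.8%. Sipa1l1, a Rap GTPase-activating protein, differed by 2.96, the Rac exchange factor gene Tiam1 by 2.50, the ubiquitin ligase gene Pdzrn3 by 2.44 and the PI3-kinase subunit gene Pik3r1 by 2.01. Chn2, a chimaerin that turns off Rac, differed by -5.26 with 1 of 3 PIC arrays above the low value level, and Anks1, an Eph adaptor, by -1.43. The metalloprotease gene Adam10, which cuts ephrins, differed by 0.06, and the adaptor genes Nck1 and Nck2 by 0.86 and 0.10, none of them called.

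Of 24 tested Slit and Robo partners, 5 were called towards PICs and 7 towards satellite cells (median 0.11), beside 29.8% of all genes in either direction. The Slit-Robo GTPase-activating protein genes Srgap3 and Srgap1 differed by 4.11 and 1.84, while Srgap2 (0.52) was not called. Flrt3, a Robo and Unc5 binding membrane protein, differed by 1.74 and the proteoglycan gene Sdc2 by 1.67. Higher in satellite cells were the actin regulator gene Cap2 (-4.14), the chemokine receptor gene Cxcr4 (-2.97), Arhgap39 (-2.26), which encodes a Robo-binding GTPase-activating protein, and the proteoglycan gene Sdc4 (-2.19). Of 20 tested netrin receptor partners, limma called 5 towards PICs and 0 towards satellite cells (median 0.22); at an unadjusted p under 0.05 there were 9 and 1, and the 25.0% called stand beside the same 29.8%. They included Flrt3, the glypican gene Gpc3 (1.64), the actin-binding gene Ablim1 (1.63) and the Unc5 ligand gene Flrt2 (1.38). The neogenin ligand genes Rgma and Rgmb differed by -0.25 and 0.17 and were not called.

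Semaphorins, plexins and neuropilins, the further large guidance family, were called in both directions: of 28 tested, 11 were higher in PICs and 7 in satellite cells (median 0.46). Sema5b differed by 4.40 with 2 of 3 satellite arrays above the low value level, the semaphorin receptor gene Plxnc1 by 3.99, and the ligand genes Sema3c and Sema5a by 3.10 and 3.03. Sema4f and Sema3a had no measured level in PICs and were at least 3.65-fold and 3.06-fold higher in satellite cells. The filter fixes the direction of both, and the counts of this list include them. Plxna2 and Sema6a differed by -2.20 and -2.13. The 64.3% called stand beside 29.8% over all genes, and no test was made of the lists against the rest.

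**Figure D5:**
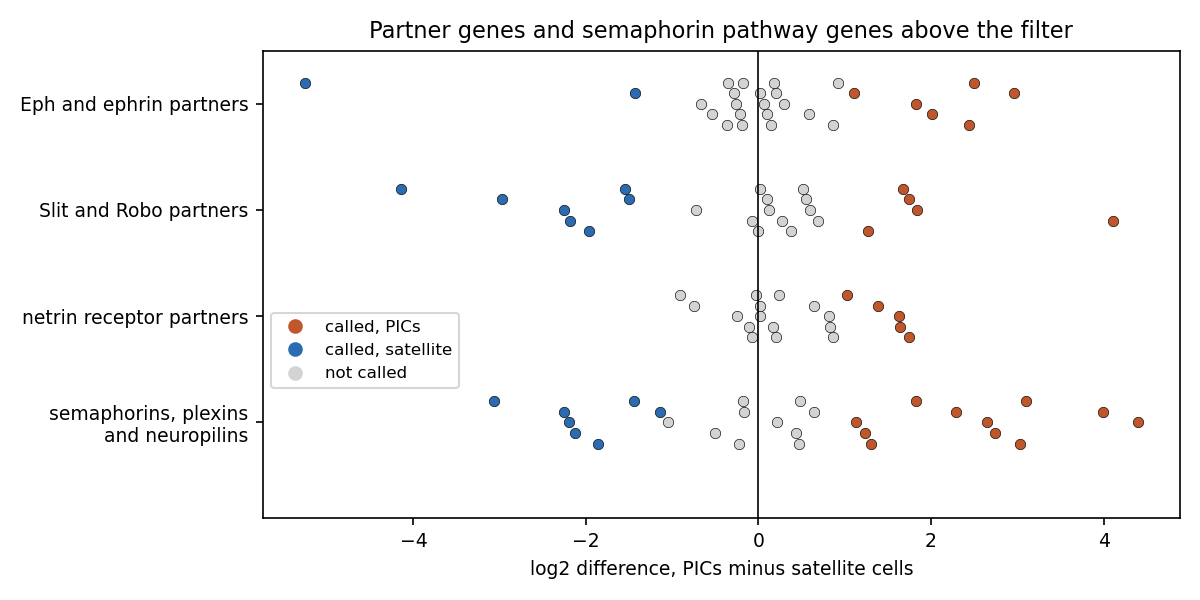
Log2 difference, PICs minus satellite cells (horizontal axis), of each tested gene in the 4 partner and pathway lists; orange and blue points are called genes, grey points are not, and vertical offsets within a list only separate points. Chn2 at -5.26 and Sema5b at 4.40 are the outermost points.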

How the data were processed

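Transcripts were measured on 1-colour Affymetrix arrays from biotinylated cRNA made from 200 ng of total RNA, per the labels. The authors deposited 1 intensity per probe set (45037) and array, made with GCRMA per the submitters' processing notes (version not given in the sources used here). As deposited by the authors, the intensities are linear, whole numbers with a median of 10 on the array of PICs replicate 1. Rounding makes the lowest log2 steps coarse. Scanner files and scan dates were not used here.

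Symbols came from the platform annotation (34945 probe sets with 1 symbol, 932 with several, 9160 with none listed) and were updated by gene number through RefSeq (GRCm38.p6; 34741 matched). The probe set of highest mean among those above the filter stood for each gene. Tests used limma 3.58.1 (lmFit, eBayes, two-sided) in R 4.3.3 on log2 values over 10855 genes, with Benjamini-Hochberg adjustment, and were checked on simulated data. A bound is the mean of the measured population minus 4. Arrays limit the precision by their number, 3 per population.

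The members and lists were chosen with earlier results of these data known. Of the partner lists up to 4 called genes of largest difference per list and direction are named. Adam10, Nck1, Nck2, Srgap2, Rgma and Rgmb were named after their values were seen. Flrt3, Nck1 and Fyn stand in 2 lists each. Deviations from the population means correlated across genes at 0.222 to 0.623 for arrays of equal replicate number and at -0.568 to 0.0363 for unequal numbers, so the numbers appear to pair the samples; this pairing comes from the data, not the labels. Tests are without the block, which was run as an alternative. Further alternatives were no filter, a stricter filter, the mean of a gene's probe sets, 16 added to each value, centring, a trend with robust estimation, array weights, each array left out and, chosen after seeing the data, both arrays numbered 3 left out and each probe set tested on its own.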

Additional observations from a re-analysis of the deposited data

How the results depend on the processing

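Over 15 alternatives, the 14 called genes gave 209 fits and were called with the same direction in 208; the exception was Epha7 with 16 added to each value (0.97), and Epha7 was not tested under the stricter filter. Adding 16 shrinks low values by construction, and gave 2.49 for Efnb3 and -2.53 for Ephb1 in place of 3.89 and -3.98. With the replicate block, 11 genes were called towards PICs and 3 towards satellite cells, and the pairing changed no call of a guidance gene. Among genes not called, Neo1 turned to -0.11 with the mean of its probe sets, and Robo4 ranged from -0.88 to 0.27 with 1 array left out, was 0.27 without PICs replicate 3 and 0.26 without both arrays numbered 3. Unc5b was called with array weights (1.36), without PICs replicate 3 (1.41) and without both arrays numbered 3 (1.47). With 1 array left out, differences that were not called ranged from -0.59 to -0.09 for Epha2, -0.46 to -0.19 for Ntn4, -0.28 to -0.13 for Ephb6, 0.21 to 0.45 for Robo1, 0.10 to 0.35 for Neo1 and 0.42 to 0.89 for Ephb4. The median over guidance genes was 0.09 without the filter, where 40 genes entered in place of 25. Of the semaphorin list, 4 genes in place of 7 were called higher in satellite cells under the stricter filter, with fewer genes tested. Values near the low value level limit what can be seen for the 15 genes that did not pass.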
